A study of Capra hircus with 9 samples.

Results

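The genes described here are 48 genes of mitosis and of the step from G2 into mitosis, chosen by name: cyclins and their kinase CDK1, mitotic kinases, the chromosomal passenger complex, the spindle checkpoint, kinetochore and condensin subunits, spindle motors, cytokinesis proteins and 2 transcription factors. They are 48 of 18383 genes named in the files. Of the 48, 47 were listed in at least 1 library and 46 in all 9. HMMR, a spindle protein, was listed in 0 libraries, and CENPE, a kinesin of the kinetochore, was listed in 8 and missing from HC2. RNA sequencing was done on rumen epithelium of goats (Capra hircus) aged 4 months, which had been given 1 of 3 kinds of concentrate diet. The diets are called HC, MC and LC in the titles, with 3 libraries each, and the letters are not spelled out there. Age, species and tissue were shared by all groups, the diet was the labelled difference, and no allele, agent or feeding time is labelled. Whether each library came from its own animal is not labelled either, so a p-value here measures the spread between these libraries, which may be technical.

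In the rumen, a stratified squamous epithelium takes up the acids of fermentation, and its dividing cells sit in and near the basal layer, as in other such epithelia. A cell that has copied its DNA enters mitosis when CDC25 phosphatases activate CDK1 bound to cyclin B, and it leaves mitosis when CDC20 and the anaphase-promoting complex mark cyclin B and securin for destruction. Most of these genes are transcribed in a wave that peaks in G2 and mitosis, with FOXM1 and MYBL2 among the factors that drive it, so in a tissue their RNA is commonly read as a trace of dividing cells. In bulk tissue, fewer cells of a type and less RNA per cell cannot be told apart.

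Levels are deposited FPKM, that is, fragments per kilobase of transcript per 1000000 mapped. The files give FPKM alone, so depth is unknown and no counting interval can be given. A library listed between 15123 and 16696 genes and had between 10880 and 12009 at 1 FPKM or more; the sum of all FPKM was 755624 in LC1, and elsewhere between 903006 and 1051180. Between libraries of a diet, Pearson correlations over genes (not independent replicates) lay between 0.965 and 0.993. The HC files differed from the MC and LC files in a header word, in empty lines and in date-like gene names, so a difference in how the files were made and the HC diet cannot be told apart.

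The genes were low. PTTG1, which encodes securin, and BUB3, a spindle checkpoint protein, averaged over 10 FPKM across the 9 libraries, 36 of the genes averaged between 1 and 10 FPKM, and 9 averaged under 1 FPKM. Of the 48, 43 reached 1 FPKM in at least 1 library and 24 in all 9. CDC25C, CENPE, CENPF and KIF23 were listed but reached 1 FPKM in 0 libraries, and KIF4A and FOXM1 reached it in 1 or 2. From 37 to 39 of the genes reached 1 FPKM in an HC library, 41 in each MC library and 26 to 32 in an LC library. MKI67, the usual marker of proliferation, was low, with 1.12, 1.90 and 2.21 FPKM in HC, 1.40, 1.61 and 2.25 FPKM in MC and 0.632, 1.01 and 1.13 FPKM in LC.

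Differences were tested with limma on log2(FPKM + 1), two-sided, with Benjamini-Hochberg adjustment over all genes of a contrast and a threshold of 0.05. A gene "rose" or "fell" only if it passed, changes are log2 ± SE, and on this scale the changes of low genes are understated. A filter of 1 FPKM in at least 3 libraries passed 41 of the 48 genes, including TTK and NDC80, which passed through MC alone, and 8 that were under 1 FPKM in every LC library. Passing through the diet in which a gene is high favours a difference, so counts are given first from a fit with no filter. That fit holds the 46 genes listed in all 9 libraries among 13820 genes.

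Mean levels were mostly highest in MC and lowest in LC. Among the 46 genes the highest mean was in MC for 39, in HC for 6 (CCNB2, CDC25C, CDCA3, BUB1, PRC1 and FOXM1) and in LC for CDC25B alone. The lowest mean was in LC for 40, in HC for 6 (CDC25B, NDC80, SMC4, NCAPD2, ECT2 and RACGAP1) and in MC for 0. Of all genes that passed the filter, 20.4% were highest in HC, 38.5% in MC and 41.1% in LC. The lowest mean was in HC for 42.6% of them, in MC for 29.5% and in LC for 27.9%. In the limma F test over the 3 diets, 39 of the 46 genes differed in the fit without a filter, where 41.1% of all genes did. With the filter the F test called 35 of 41, against 45.2% of all genes tested, and 28 of the 35 calls held when each library in turn was left out.

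**Figure D1:**
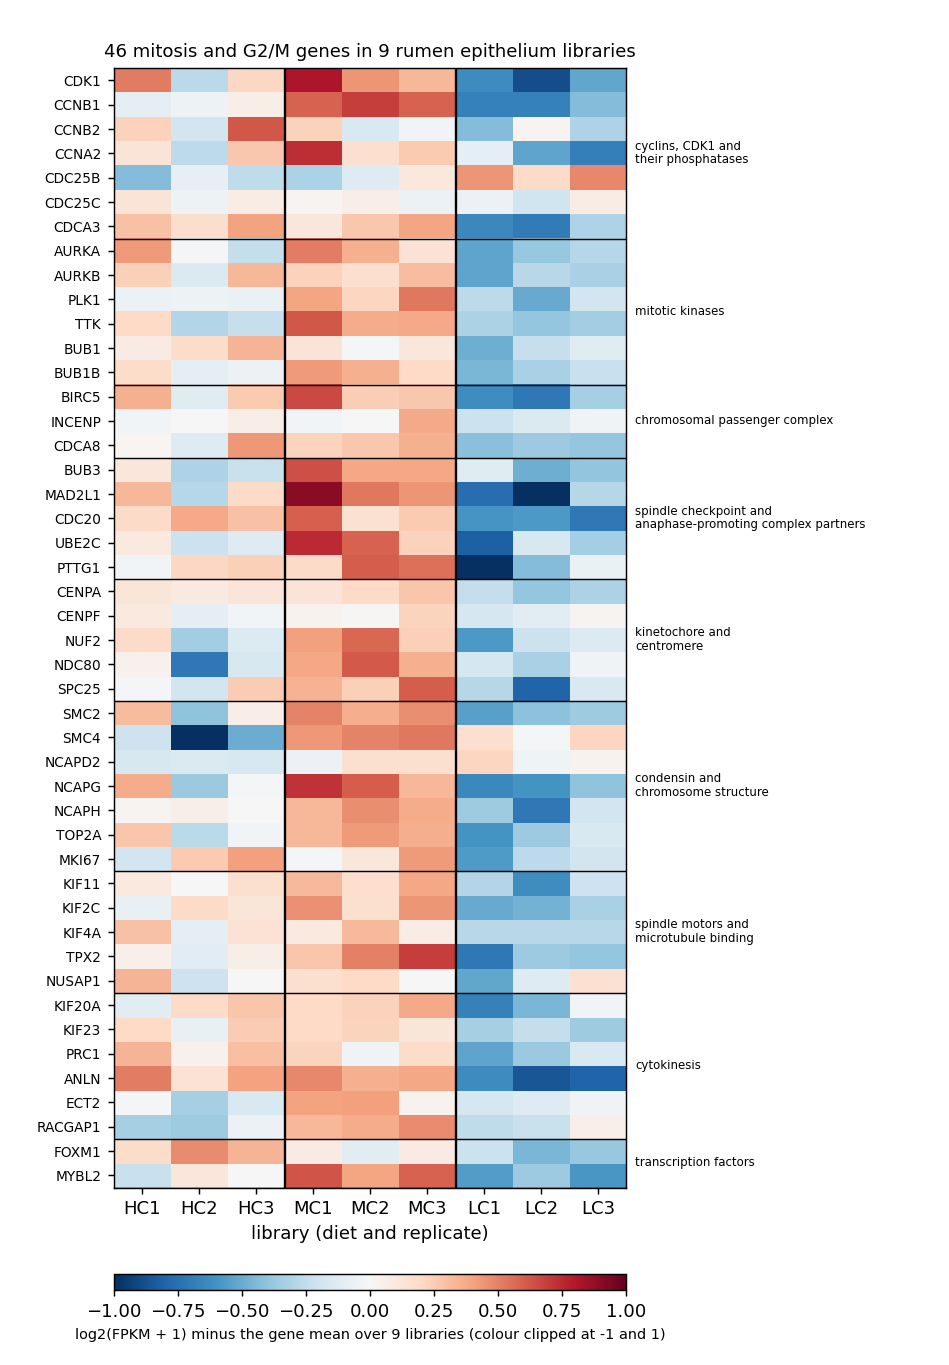
Heat map of the 46 genes listed in all 9 libraries, in rows by role, with libraries in columns (HC, MC, LC, 3 libraries each). Colour is log2(FPKM + 1) minus the gene's mean over the 9 libraries. Most rows are red in MC, mixed in HC and blue in LC, while CDC25B is red in LC and SMC4 is dark blue in HC2.

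In HC minus LC, the genes that went up included ANLN, which builds the contractile ring, CDC20, the activator of the anaphase-promoting complex, CDCA3, CDK1 and CCNB1. CDC25B, a phosphatase that activates CDK1, and SMC4, a condensin subunit, went down. Without a filter, 20 of the 46 genes rose (43.5%) and 2 fell, where 6.9% of all genes rose and 17.0% fell. The 3 HC libraries lay above the 3 LC libraries for 26 of the 46 genes and below them for 3, against 12.0% and 28.0% of all genes. The median log2 change was 0.45 for the 46 genes and -0.11 for all genes. Without HC3 the fit without a filter called 8 of the 46 genes and without LC2 14, and it called 15 to 21 without any other 1 library. Of all genes, 13.9% were called without HC3, 18.4% without LC2 and 16.2% to 22.6% without any other 1 library. With the filter, 16 rose and 2 fell of 41, where 7.79% of all genes rose and 17.4% fell. Of these 18 calls, leaving out HC3 left 8 and leaving out LC2 left 11, where 15.2% and 19.7% of all genes passed. The calls of ANLN, BIRC5, CCNB1, CDC20, CDC25B, CDCA3, CDK1 and SMC4 held without each library in turn. In the fit without a filter, BIRC5 was lost without HC3 (limma adjusted p = 0.0537) and CDK1 without HC3 or LC2 (up to 0.0509). The count without a filter depended on the scaling. It was 33 rises and 0 falls under quantile normalization, where 11.4% of all genes rose and 9.15% fell. Under median-of-ratios scaling it was 26 and 1, against 11.8% and 10.2% of all genes. With each library scaled to a sum of 1000000 it was 11 and 2, against 4.73% and 17.8%.

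In MC minus LC, genes of every role went up, led in size by MAD2L1, CCNB1, CDK1 and ANLN, and CDC25B again went down. Without a filter, 35 of the 46 genes rose (76.1%) and 1 fell, where 14.0% of all genes rose and 16.2% fell. The MC libraries lay above the LC libraries for 40 of the 46 genes and below them for 1, against 21.4% and 23.2% of all genes. The median log2 change was 0.69 for the 46 genes and -0.027 for all genes. Leaving out 1 library gave 31 to 37 calls in that fit, where 21.7% to 31.5% of all genes passed. With the filter, 32 rose and 1 fell of 41, where 16.2% of all genes rose and 17.1% fell. Of these 33 calls, 28 held without each library in turn; CCNA2 was lost without MC1, KIF20A without MC3, NDC80 without MC1, MC2 or LC2, and CDC25B and PRC1 without any 1 of 4 libraries.

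In the fits with and without the filter, HC was lower wherever HC and MC differed past the test. Some other settings gave a rise in HC, as told below. Without a filter 11 of the 46 genes fell in HC minus MC (23.9%) and 0 rose, where 14.2% of all genes fell and 6.66% rose: CCNB1, PLK1, TTK, BUB3, UBE2C, NDC80, SMC4, TPX2, RACGAP1, MYBL2 and ECT2. In that fit 4 genes passed without HC2, 5 without HC3 or MC1 and 7 without MC2. Of all genes, 12.3% passed without HC2, 10.9% without HC3, 11.4% without MC1 and 11.8% without MC2. HC libraries lay below MC libraries for 20 of the 46 genes and above them for 1, FOXM1, against 30.2% and 13.8% of all genes. The median log2 change was -0.28 for the 46 genes and -0.092 for all genes. With the filter, 11 of 41 fell and 0 rose, where 17.0% of all genes fell and 8.0% rose; NCAPG was then past the test and ECT2 was not. TTK and NDC80 passed that filter through MC alone, so their place in the filtered count rests on the diet in which they were high. The calls of CCNB1, RACGAP1 and SMC4 held without each library in turn. The 3 contrasts share libraries, so their values are set side by side and not compared: with the filter 15 genes rose against LC in both other diets, 17 passed in MC minus LC and not in HC minus LC, and BUB1 passed in HC minus LC and not in MC minus LC.

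**Figure D2:**
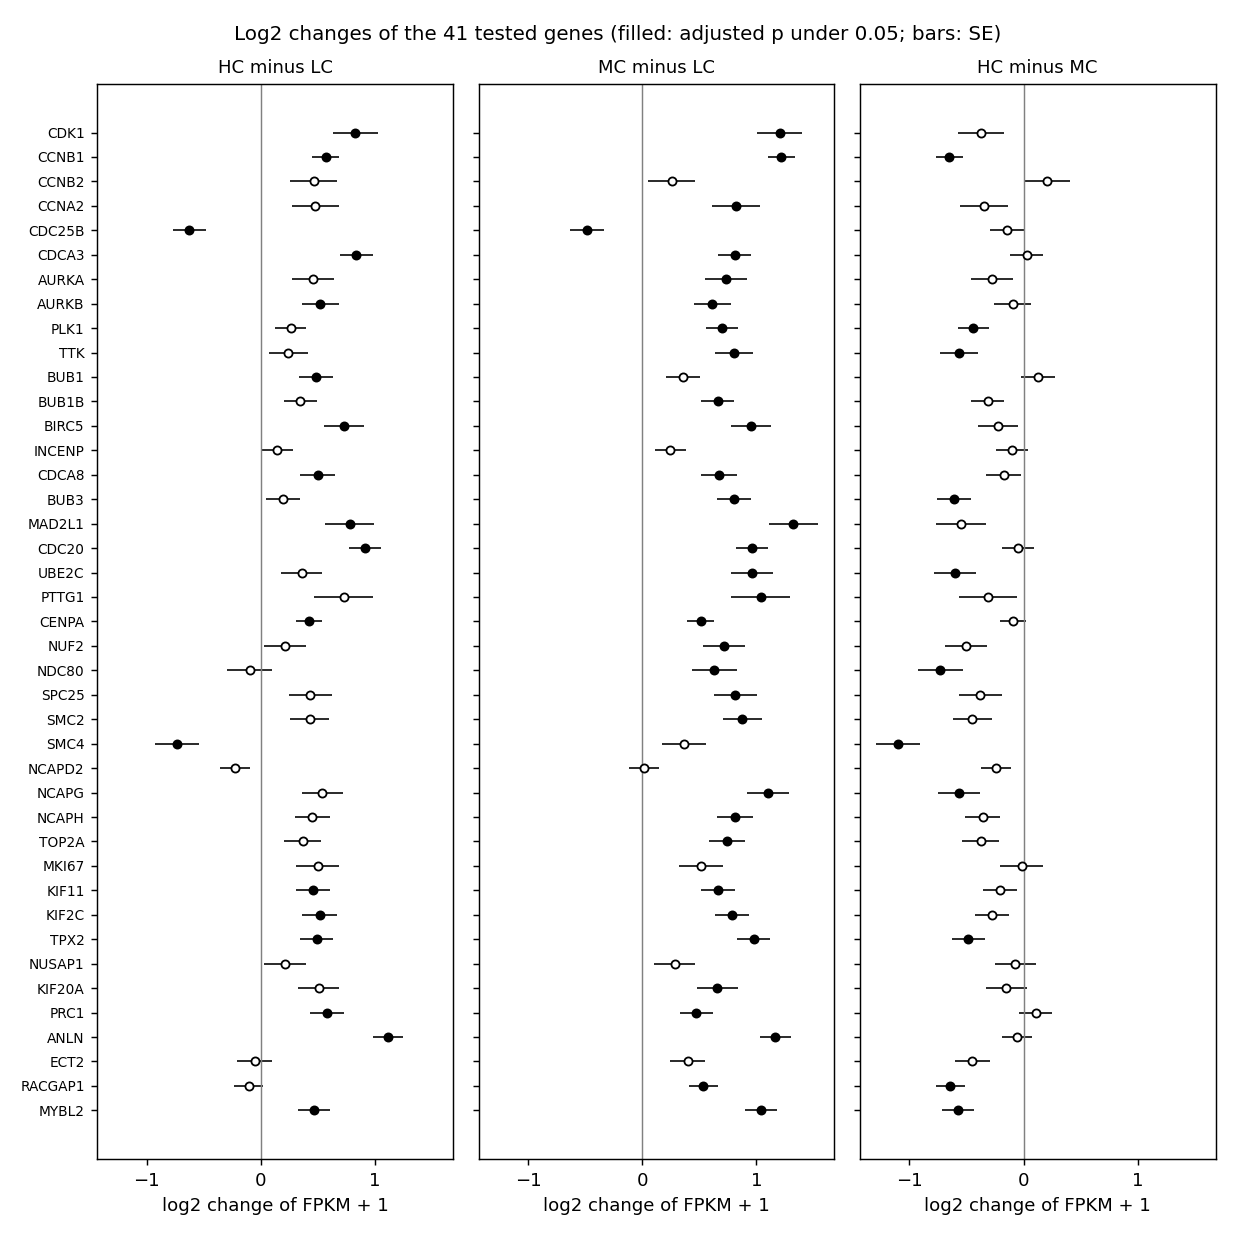
Log2 change of FPKM + 1 (x axis) for the 41 genes that passed the filter (y axis, by role) in HC minus LC, MC minus LC and HC minus MC. Points are limma estimates, bars are SE, and filled points have an adjusted p under 0.05; 18, 33 and 11 points are filled.

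Among the cyclins, CDK1 and their phosphatases, CCNB1 separated all 3 diets. CCNB1 encodes cyclin B1, the partner that CDK1 needs to start mitosis (chromosome 20, 10454037 to 10463241). It stood at 4.10, 4.26 and 4.69 FPKM in HC, 7.20, 7.79 and 7.17 FPKM in MC and 2.41, 2.41 and 3.02 FPKM in LC, with no overlap between any diets. It rose in HC minus LC (0.57 ± 0.12, limma adjusted p = 0.00497) and in MC minus LC (1.22 ± 0.12, adjusted p = 2.37e-05) and fell in HC minus MC (-0.65 ± 0.12, adjusted p = 0.00285). CDCA3, described in frog egg extracts as a trigger of mitotic entry, had 3.02, 2.72 and 3.33 FPKM in HC, 2.56, 2.97 and 3.33 FPKM in MC and 1.11, 1.03 and 1.66 FPKM in LC. The HC and MC libraries overlapped, and both lay above LC. CDCA3 rose by 0.84 ± 0.15 in HC minus LC (limma adjusted p = 0.00186) and by 0.81 ± 0.15 in MC minus LC (adjusted p = 0.00148), and its value in HC minus MC was 0.03 ± 0.15 (adjusted p = 0.905).

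CDK1 itself averaged 4.09 ± 1.35 FPKM in HC, 5.50 ± 1.16 FPKM in MC and 1.81 ± 0.354 FPKM in LC (SD, n = 3 each) and rose in both contrasts against LC. CCNA2, the cyclin of S phase and G2, rose in MC minus LC (0.82 ± 0.21, limma adjusted p = 0.0104), a call lost without MC1, and its value is uncertain because its locus overlaps that of EXOSC9 in the files. CCNB2, the other B cyclin, was highest in HC at 2.84 ± 1.06 FPKM, with 2.27 ± 0.455 FPKM in MC and 1.74 ± 0.464 FPKM in LC, and passed no test. CDC25B (chromosome 13, 49683993 to 49693237) ran against the rest, with 3.10, 4.24 and 3.63 FPKM in HC, 3.45, 4.06 and 4.95 FPKM in MC and 6.52, 5.33 and 6.71 FPKM in LC. Every LC library lay above every HC and MC library. CDC25B fell in HC minus LC (-0.63 ± 0.15, limma adjusted p = 0.00959) and in MC minus LC (-0.48 ± 0.15, adjusted p = 0.025); the MC call was lost without MC1, MC2, LC1 or LC3, with adjusted p up to 0.105. CDC25C, the related phosphatase, lay between 0.163 and 0.458 FPKM in all libraries and passed no test.

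All 6 mitotic kinases passed the F test with the filter, where 45.2% of all genes did. In each of them the 3 LC libraries lay below the HC libraries and below the MC libraries. Of all genes listed in 9 libraries, HC lay above LC for 12.0% and MC above LC for 21.4%. With the filter, 2 of the 6 kinases rose in HC minus LC and 5 in MC minus LC, against 7.79% and 16.2% of all genes. PLK1, the polo-like kinase of mitotic entry and spindle poles, had 1.86, 1.88 and 1.84 FPKM in HC, 2.92, 2.47 and 3.30 FPKM in MC and 1.48, 1.10 and 1.61 FPKM in LC. It rose in MC minus LC (0.70 ± 0.14, limma adjusted p = 0.00247) and fell in HC minus MC (-0.44 ± 0.14, adjusted p = 0.0366), a call lost without HC1, HC2, HC3, MC1 or MC3 (adjusted p up to 0.111). TTK, the kinase also called MPS1 that starts the spindle checkpoint, stood at 0.837, 0.311 and 0.366 FPKM in HC, 1.46, 1.08 and 1.09 FPKM in MC and 0.290, 0.226 and 0.259 FPKM in LC. Only the MC libraries reached 1 FPKM, and HC1 was high among the HC libraries. In the fit without a filter TTK rose in MC minus LC (0.81 ± 0.14, limma adjusted p = 0.00141) and fell in HC minus MC (-0.57 ± 0.14, adjusted p = 0.0152). With the filter the adjusted p values were 0.00343 and 0.0301, and the HC minus MC call was then lost without HC2, HC3, MC1 or MC2 (adjusted p up to 0.123).

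The other kinases passed in 1 or both contrasts against LC, and none of them passed in HC minus MC. AURKB, the kinase of the passenger complex, rose in both contrasts against LC. AURKA, the kinase of spindle poles, and BUB1B, a checkpoint protein also called BubR1, rose in MC minus LC, by 0.74 ± 0.18 and 0.66 ± 0.14. BUB1, a checkpoint kinase, rose in HC minus LC (0.48 ± 0.15, limma adjusted p = 0.0359) and had a value of 0.36 ± 0.15 in MC minus LC (adjusted p = 0.089). The HC minus LC calls of AURKB and BUB1 were each lost without HC3 and without any 1 of several other libraries, with adjusted p up to 0.145 and 0.14. AURKA, AURKB and BUB1 passed the filter through HC and MC alone. Without a filter, the limma adjusted p in HC minus LC was 0.0238 for AURKB and 0.0233 for BUB1. In MC minus LC it was 0.00877 for AURKA, 0.00806 for AURKB and 0.062 for BUB1.

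The chromosomal passenger complex corrects wrong attachments of chromosomes to the spindle, and BIRC5 and CDCA8, 2 of the 3 subunits grouped here, rose against LC in both diets. BIRC5, which encodes survivin, had 3.21, 2.03 and 2.94 FPKM in HC, 4.20, 2.89 and 2.97 FPKM in MC and 1.13, 0.998 and 1.60 FPKM in LC. HC and MC overlapped, and every LC library was lower. BIRC5 rose by 0.73 ± 0.17 in HC minus LC (limma adjusted p = 0.0111) and by 0.95 ± 0.17 in MC minus LC (adjusted p = 0.00167). CDCA8, which encodes borealin, had 1.53, 1.28 and 2.38 FPKM in HC, 1.91, 2.01 and 2.195 FPKM in MC and 0.871, 0.939 and 0.910 FPKM in LC. The LC libraries were close together and below 1 FPKM. CDCA8 rose by 0.50 ± 0.16 in HC minus LC (limma adjusted p = 0.0376) and by 0.67 ± 0.16 in MC minus LC (adjusted p = 0.00664). It passed the filter through HC and MC alone, and without a filter the limma adjusted p values were 0.0357 and 0.00663. The HC minus LC call of CDCA8 was lost without HC1, HC3, MC1, MC2, LC1, LC2 or LC3, with adjusted p up to 0.17. INCENP, the scaffold that holds AURKB, averaged 2.96 ± 0.124 FPKM in HC, 3.28 ± 0.696 FPKM in MC and 2.59 ± 0.227 FPKM in LC and passed no test.

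The spindle checkpoint and its targets held the more abundant genes, and all 5 of them rose in MC minus LC. With the filter, 16.2% of all genes rose in that contrast. MAD2L1, the MAD2 protein that holds CDC20 inactive, had 8.59, 5.25 and 7.70 FPKM in HC, 13.2, 10.02 and 9.37 FPKM in MC and 3.50, 2.67 and 5.28 FPKM in LC. MC lay above both other diets, and HC2 lay just under LC3. MAD2L1 rose by 1.32 ± 0.22 in MC minus LC (limma adjusted p = 0.000956) and by 0.78 ± 0.22 in HC minus LC (adjusted p = 0.0237). The HC minus LC call of MAD2L1 was lost without HC1, HC3, LC1 or LC2, with adjusted p up to 0.085. CDC20 (chromosome 3, 99082616 to 99086604) had 4.16, 4.90 and 4.53 FPKM in HC, 5.86, 4.03 and 4.42 FPKM in MC and 2.01, 2.04 and 1.76 FPKM in LC. HC and MC overlapped, with means 2.34 and 2.46 times that of LC. CDC20 rose by 0.91 ± 0.14 in HC minus LC (limma adjusted p = 0.000771) and by 0.96 ± 0.14 in MC minus LC (adjusted p = 0.000343).

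BUB3, which brings BUB1 and BUB1B to kinetochores, and UBE2C, the ubiquitin-conjugating enzyme of the anaphase-promoting complex, were high in MC alone. BUB3 averaged 17.9 ± 2.98 FPKM in HC, 27.7 ± 3.12 FPKM in MC and 15.5 ± 2.25 FPKM in LC (SD, n = 3 each). UBE2C averaged 6.42 ± 0.854 FPKM in HC, 10.3 ± 2.01 FPKM in MC and 4.87 ± 1.31 FPKM in LC. Both rose in MC minus LC and fell in HC minus MC, while their values in HC minus LC were 0.19 ± 0.15 (limma adjusted p = 0.36) and 0.36 ± 0.18 (adjusted p = 0.174). The HC minus MC call of BUB3 was lost without HC2, HC3 or MC1, and that of UBE2C without HC2, HC3, MC1 or MC2, with adjusted p up to 0.0576 and 0.127. PTTG1, the securin that guards sister chromatid cohesion, averaged 24.8 ± 2.54 FPKM in HC, 31.2 ± 4.82 FPKM in MC and 15.5 ± 6.32 FPKM in LC, where LC1 was low at 8.74 FPKM and LC3 high at 21.3 FPKM. PTTG1 rose in MC minus LC (1.04 ± 0.26, limma adjusted p = 0.011), and its value in HC minus LC was 0.73 ± 0.26 (adjusted p = 0.0631).

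**Figure D3:**
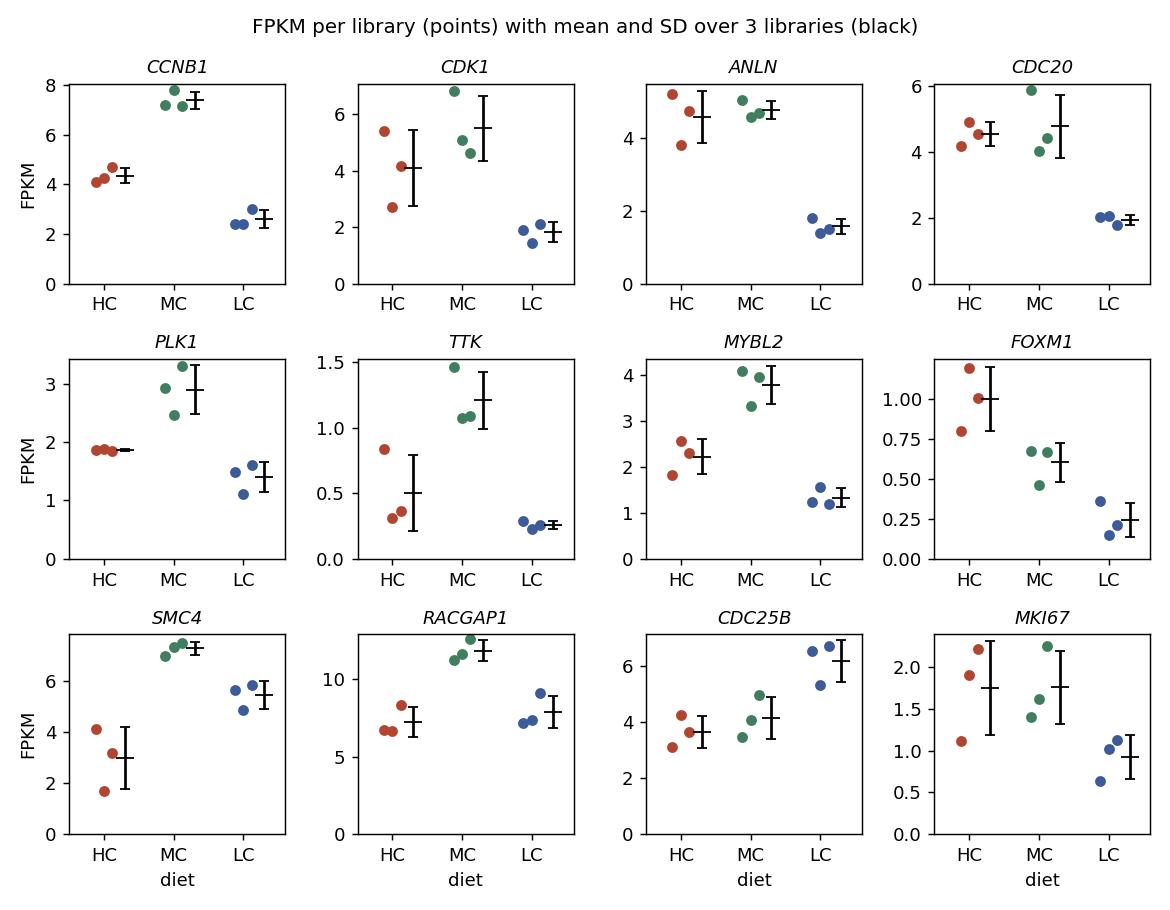
FPKM (y axis, from 0) of 12 genes in each library of HC, MC and LC (points), with the mean and SD over 3 libraries in black. CCNB1, PLK1, TTK and MYBL2 are highest in MC, ANLN and CDC20 are alike in HC and MC, FOXM1 is highest in HC, SMC4 is lowest in HC and CDC25B is highest in LC.

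At the kinetochore, CENPA, the histone variant that marks the centromere, had the tightest values. It stood at 2.87, 2.81 and 2.88 FPKM in HC, 2.91, 3.09 and 3.32 FPKM in MC and 2.03, 1.74 and 1.88 FPKM in LC. All LC libraries were lower, and the HC libraries lay just under the MC libraries. CENPA rose by 0.42 ± 0.12 in HC minus LC (limma adjusted p = 0.021) and by 0.51 ± 0.12 in MC minus LC (adjusted p = 0.00553), and the HC call was lost without HC3, LC2 or LC3 (adjusted p up to 0.0737). SPC25, a subunit of the NDC80 complex that grips microtubules, had 2.21, 1.87 and 2.89 FPKM in HC, 3.15, 2.84 and 3.97 FPKM in MC and 1.67, 0.867 and 1.93 FPKM in LC. HC overlapped both other diets. SPC25 rose in MC minus LC (0.81 ± 0.19, limma adjusted p = 0.00642), and its value in HC minus LC was 0.43 ± 0.19 (adjusted p = 0.114).

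The partners of SPC25 in that complex, NUF2 and NDC80, were also highest in MC. NUF2 averaged 1.11 ± 0.40 FPKM in HC, 1.97 ± 0.342 FPKM in MC and 0.814 ± 0.283 FPKM in LC and rose in MC minus LC (0.72 ± 0.18, limma adjusted p = 0.0101). NDC80 averaged 0.614 ± 0.41 FPKM in HC, with HC2 at 0.166 FPKM, 1.62 ± 0.265 FPKM in MC and 0.694 ± 0.168 FPKM in LC. In the fit without a filter NDC80 rose in MC minus LC (0.63 ± 0.18, limma adjusted p = 0.0225) and fell in HC minus MC (-0.73 ± 0.18, adjusted p = 0.017). With the filter the HC minus MC call of NDC80 was lost without HC2, MC1 or MC2 (adjusted p up to 0.0803), and the MC minus LC call without MC1, MC2 or LC2 (up to 0.101). CENPF, a large kinetochore protein, lay between 0.375 and 0.807 FPKM in all libraries and passed no test, and CENPE lay between 0.0836 and 0.491 FPKM where it was listed.

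Condensin folds chromosomes for mitosis, and its subunits did not move together. SMC4, an ATPase of its core (chromosome 1, 104980690 to 105010693), had 4.11, 1.70 and 3.19 FPKM in HC, 6.999, 7.35 and 7.499 FPKM in MC and 5.65, 4.85 and 5.86 FPKM in LC. All 3 diets were apart, with HC lowest and HC2 lowest within it. SMC4 fell in HC minus LC (-0.74 ± 0.19, limma adjusted p = 0.017) and in HC minus MC (-1.10 ± 0.19, adjusted p = 0.00246), and its value in MC minus LC was 0.36 ± 0.19 (adjusted p = 0.173). SMC2, the other ATPase of the core, averaged 2.41 ± 0.831 FPKM in HC, 3.56 ± 0.227 FPKM in MC and 1.48 ± 0.166 FPKM in LC and rose in MC minus LC by 0.88 ± 0.17.

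NCAPG, a subunit of condensin I, had 4.04, 2.01 and 2.86 FPKM in HC, 5.46, 4.93 and 3.93 FPKM in MC and 1.49, 1.58 and 1.96 FPKM in LC. HC1 reached into the range of MC, and LC was lowest. NCAPG rose in MC minus LC (1.10 ± 0.18, limma adjusted p = 0.000908) and fell in HC minus MC (-0.56 ± 0.18, adjusted p = 0.0437). The HC minus MC call was lost without HC2, HC3, MC1, MC2 or LC2 (adjusted p up to 0.162), and also with no filter (0.0522) and with a pseudocount of 0.1 (0.0504). Its value in HC minus LC was 0.54 ± 0.18 (limma adjusted p = 0.0501). NCAPH, another condensin I subunit, rose in MC minus LC by 0.81 ± 0.16, while NCAPD2, the third, averaged 1.60 ± 0.0231 FPKM in HC, 2.09 ± 0.26 FPKM in MC and 2.05 ± 0.29 FPKM in LC and passed no test. NCAPH passed the filter through HC and MC alone. Without a filter it rose in MC minus LC (limma adjusted p = 0.00172) and in HC minus LC (0.45 ± 0.14, adjusted p = 0.0414). That HC minus LC call was lost without any 1 of 8 libraries. TOP2A, the topoisomerase that untangles sister chromatids, rose in MC minus LC by 0.74 ± 0.16. MKI67, which coats mitotic chromosomes, had values of 0.50 ± 0.19 in HC minus LC (limma adjusted p = 0.0743) and 0.51 ± 0.19 in MC minus LC (adjusted p = 0.0552), and in HC minus MC it was near 0 with a sign that depended on the scaling. The calls of MKI67 depended on the settings. In HC minus LC it passed with median-of-ratios scaling (limma adjusted p = 0.0428), quantile normalization (0.0296), library weights (0.00105) and without HC1 (0.027). In MC minus LC it passed with the smooth muscle markers as a covariate (0.0343), a sum of 1000000 (0.0456) and without HC1 (0.036). With the replicate number as a block it passed in both (0.0188 and 0.0128), though the labels do not say that equal numbers are paired.

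Among spindle motors and microtubule-binding proteins, TPX2, KIF2C and KIF11 rose against LC in both diets. TPX2, which activates AURKA on the spindle, had 4.22, 3.71 and 4.27 FPKM in HC, 5.11, 6.15 and 7.15 FPKM in MC and 2.08, 2.92 and 2.87 FPKM in LC, with no overlap between diets. TPX2 rose by 0.49 ± 0.14 in HC minus LC (limma adjusted p = 0.0283) and by 0.98 ± 0.14 in MC minus LC (adjusted p = 0.000419) and fell in HC minus MC (-0.49 ± 0.14, adjusted p = 0.0301). Its HC minus LC call was lost without HC1, HC3 or LC1 (adjusted p up to 0.0972) and its HC minus MC call without HC2, HC3, MC2 or MC3 (up to 0.0996). KIF2C, a kinesin that takes microtubules apart at centromeres, had 0.850, 1.23 and 1.13 FPKM in HC, 1.68, 1.18 and 1.65 FPKM in MC and 0.376, 0.403 and 0.557 FPKM in LC. LC was lowest in every library. KIF2C rose by 0.51 ± 0.15 in HC minus LC (limma adjusted p = 0.0278) and by 0.79 ± 0.15 in MC minus LC (adjusted p = 0.00209), and the HC call was lost without HC2, HC3, LC1 or LC2 (adjusted p up to 0.0921). KIF2C passed the filter through HC and MC alone. Without a filter its limma adjusted p was 0.0163 in HC minus LC and 0.00117 in MC minus LC. The HC call was then lost without HC2, HC3 or LC2. KIF11, the kinesin that pushes spindle poles apart, averaged 1.51 ± 0.145 FPKM in HC, 1.90 ± 0.225 FPKM in MC and 0.841 ± 0.271 FPKM in LC, and its HC minus LC call was lost without any 1 of 7 libraries, HC3 included (adjusted p up to 0.151). KIF4A, a kinesin that binds chromosome arms, averaged 0.935 ± 0.26 FPKM in HC, 0.997 ± 0.195 FPKM in MC and 0.465 ± 0.00346 FPKM in LC, and in the fit without a filter it rose in HC minus LC (0.39 ± 0.13, limma adjusted p = 0.044) and MC minus LC (0.44 ± 0.13, adjusted p = 0.0217). Its HC minus LC call was lost when any 1 library other than HC2 or MC2 was left out (adjusted p up to 0.134), and its MC minus LC call without MC2 or LC2 (up to 0.086). NUSAP1, which bundles spindle microtubules, averaged 5.42 ± 1.24 FPKM in HC, 5.69 ± 0.458 FPKM in MC and 4.58 ± 1.28 FPKM in LC and passed no test.

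In cytokinesis, ANLN had the largest change of the 41 genes in HC minus LC. ANLN encodes anillin, the scaffold of the contractile ring (chromosome 4, 58347155 to 58401216). It stood at 5.18, 3.78 and 4.74 FPKM in HC, 5.03, 4.56 and 4.67 FPKM in MC and 1.81, 1.40 and 1.49 FPKM in LC. HC and MC overlapped, with means 2.92 and 3.04 times that of LC. ANLN rose by 1.11 ± 0.13 in HC minus LC (limma adjusted p = 0.000161) and by 1.17 ± 0.13 in MC minus LC (adjusted p = 6.92e-05). RACGAP1, a subunit of the centralspindlin complex that places the cleavage site (chromosome 5, 28808077 to 28833414), had 6.75, 6.66 and 8.38 FPKM in HC, 11.3, 11.7 and 12.6 FPKM in MC and 7.20, 7.39 and 9.11 FPKM in LC. HC and LC overlapped, and MC was above both. RACGAP1 rose in MC minus LC (0.53 ± 0.13, limma adjusted p = 0.0075) and fell in HC minus MC (-0.64 ± 0.13, adjusted p = 0.00471), and its value in HC minus LC was -0.11 ± 0.13 (adjusted p = 0.568), with a sign that depended on the scaling.

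KIF23, the partner of RACGAP1 in centralspindlin, had 0.904, 0.581 and 0.980 FPKM in HC, 0.912, 0.936 and 0.808 FPKM in MC and 0.321, 0.409 and 0.295 FPKM in LC. HC and MC overlapped, and LC was lower. KIF23 was under 1 FPKM in every library, and in the fit without a filter it rose by 0.44 ± 0.11 in HC minus LC (limma adjusted p = 0.0181) and by 0.49 ± 0.11 in MC minus LC (adjusted p = 0.00743). Its HC minus LC call was lost without HC1 or HC3 (adjusted p up to 0.0779). PRC1, which bundles the midzone of the spindle, rose against LC in both diets, by 0.58 ± 0.15 in HC and 0.47 ± 0.15 in MC; its HC call was lost without HC3 (adjusted p = 0.0577) and its MC call without MC1, MC3, LC1 or LC2. KIF20A, a kinesin of the midzone, rose in MC minus LC by 0.66 ± 0.18. ECT2, the exchange factor that switches on RhoA at the cleavage site, averaged 1.16 ± 0.237 FPKM in HC, 1.95 ± 0.423 FPKM in MC and 1.23 ± 0.11 FPKM in LC, and its value in HC minus MC was -0.45 ± 0.15 (limma adjusted p = 0.0505 with the filter).

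The 2 transcription factors differed in which diet was highest. MYBL2, the B-MYB subunit of the complex that switches on G2 and mitosis genes (chromosome 13, 70301675 to 70323951), had 1.82, 2.56 and 2.29 FPKM in HC, 4.09, 3.32 and 3.95 FPKM in MC and 1.23, 1.56 and 1.198 FPKM in LC. The diets were apart, with MC highest. MYBL2 rose by 0.46 ± 0.14 in HC minus LC (limma adjusted p = 0.0304) and by 1.04 ± 0.14 in MC minus LC (adjusted p = 0.00022) and fell in HC minus MC (-0.57 ± 0.14, adjusted p = 0.0123). The HC minus LC call was lost without HC2, HC3, LC1 or LC3 (adjusted p up to 0.105) and the HC minus MC call without MC1 (0.0545). FOXM1 (chromosome 5, 98024898 to 98037493) had 0.796, 1.19 and 1.01 FPKM in HC, 0.676, 0.464 and 0.670 FPKM in MC and 0.363, 0.151 and 0.215 FPKM in LC. The diets were apart, with HC highest, and FOXM1 did not pass the filter. In the fit without a filter FOXM1 rose by 0.68 ± 0.12 in HC minus LC (limma adjusted p = 0.00216) and by 0.37 ± 0.12 in MC minus LC (adjusted p = 0.0341), and its value in HC minus MC was 0.32 ± 0.12 (adjusted p = 0.0763). The HC minus LC call of FOXM1 held without each library in turn (adjusted p up to 0.0113), and its MC minus LC call was lost without MC1, MC3, LC2 or LC3 (up to 0.116). In HC minus MC without a filter, FOXM1 rose in 3 of 14 alternative settings, median-of-ratios scaling and quantile normalization among them.

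Libraries of a diet differed among themselves. The median level of the 46 genes was 2.05, 1.87 and 2.44 FPKM in the HC libraries, 2.88, 2.50 and 3.04 FPKM in the MC libraries and 1.34, 1.15 and 1.59 FPKM in the LC libraries. HC2 was the lowest HC library for 31 of the 46 genes, against 36.4% of all genes that passed the filter, and LC3 was the highest LC library for 30, against 35.3% of all genes. The 46 genes together took 131 to 171 of every 1000000 units of summed FPKM in HC, 229 to 237 in MC and 102 to 132 in LC.

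Markers of basal epithelium, where dividing cells are expected, were high throughout, with 7 of 9 markers at 1 FPKM or more and a summed level of 4317 to 6492 FPKM in HC, 5055 to 5824 FPKM in MC and 3983 to 6121 FPKM in LC; KRT15 and DST were not listed. ITGA6, an integrin of the basal layer, fell in HC minus LC and HC minus MC, and COL17A1, a collagen of the anchoring junction, fell in MC minus LC. Of the 7 basal markers tested, 1 rose and 1 fell in HC minus MC, where 5 were higher in HC by sign. In each of the contrasts against LC, 0 rose and 1 fell. Markers of the upper layers summed to 813 to 1278 FPKM in HC, 1412 to 1793 FPKM in MC and 945 to 1333 FPKM in LC, so MC lay above both other diets. Of the 6 upper markers tested, TGM1 and KRT80 rose and KRT4 and CNFN fell in MC minus LC. Smooth muscle markers varied widely between libraries. Their summed level was 107 to 138 FPKM in HC, 949 to 2913 FPKM in MC and 58.6 to 1900 FPKM in LC, where LC3 was the low library, and 7 or 8 of 8 markers reached 1 FPKM in each library. Of the 8 markers, 0 passed in HC minus LC and in MC minus LC (1 and 0 at an unadjusted p under 0.05) and 2 fell in HC minus MC, while the HC libraries lay below the MC libraries for 7 of 8. With the mean of these markers as a covariate and no filter, 6 of the 46 genes rose in HC minus LC (ANLN, CCNB1, CDC20, CDCA3, FOXM1 and KIF23) and 2 fell (CDC25B and SMC4), where 4.18% of all genes rose and 11.6% fell. In MC minus LC 36 rose and 0 fell, where 13.9% of all genes rose. In HC minus MC 3 fell (CCNB1, SMC4 and RACGAP1), where 4.56% of all genes fell. The covariate was 3.11 to 3.54 in HC and 6.005 to 7.502 in MC, so muscle content and diet cannot be told apart there. The median log2 change of the 46 genes in that contrast was -0.44 with the covariate and -0.28 without it.

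With LC3 alone for LC, no filter, and its spread taken to be that of HC and MC, 3 of the 46 genes rose in HC minus LC (CDC20, ANLN and FOXM1), where 3.03% of all genes rose, and 14 rose in MC minus LC, where 7.88% of all genes did. These fits were added after the data were seen, and the part of the muscle tissue in the differences was not tested. Macrophage and dendritic cell markers summed to 30.1 to 37.5 FPKM in HC, 11.7 to 20.8 FPKM in MC and 42.6 to 53.6 FPKM in LC, and T and NK cell markers to 12.6 to 17.4 FPKM in HC, 11.5 to 13.7 FPKM in MC and 14.8 to 15.9 FPKM in LC. That sum joins opposite changes: NKG7 averaged 11.8 FPKM in HC, 8.504 FPKM in MC and 2.91 FPKM in LC and rose against LC in both diets, while CD3E averaged 0.574, 0.605 and 3.65 FPKM in the same order and fell in both, as did CD3D, CD3G and CD2. Fibroblast markers summed to 122 to 268 FPKM in HC, 120 to 274 FPKM in MC and 205 to 508 FPKM in LC, endothelial markers to 6.23 to 11.7, 9.55 to 20.9 and 13.3 to 40.1 FPKM in the same order, and B and plasma cell markers stayed under 4 FPKM. The part of these cell types in the differences was not tested.

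**Figure D4:**
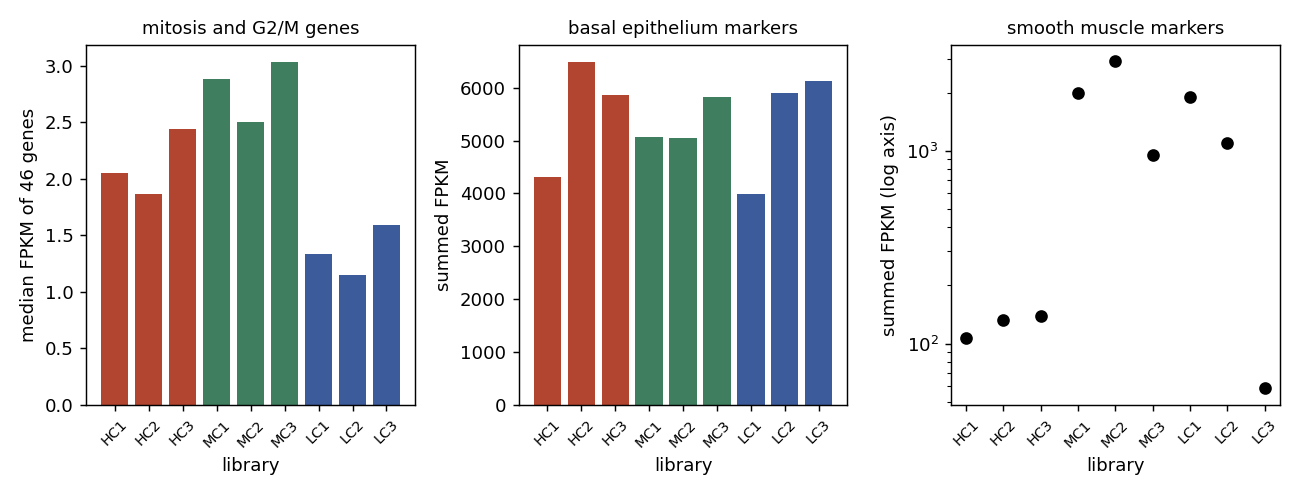
Median FPKM of the 46 genes, summed FPKM of basal epithelium markers (bars, axes from 0) and summed FPKM of smooth muscle markers (points, log axis) in each library of HC, MC and LC. The MC libraries have the 3 highest medians of the 46 genes, and the 3 HC libraries and LC3 have the 4 lowest smooth muscle sums.

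Other genes of the cell cycle were counted from lists, in the fit without a filter, where 6.9% of all genes rose and 17.0% fell in HC minus LC, 14.0% and 16.2% in MC minus LC, and 6.66% and 14.2% in HC minus MC. Of 51 genes of DNA replication, 22 rose (43.1%) and 1 fell in HC minus LC, 38 rose (74.5%) and 0 fell in MC minus LC, and 1 rose and 18 fell (35.3%) in HC minus MC. UHRF1, which carries DNA methylation through replication, averaged 5.15 ± 0.899 FPKM in HC, 8.74 ± 1.25 FPKM in MC and 1.93 ± 0.0753 FPKM in LC. MCM5, a subunit of the replicative helicase, averaged 13.2 ± 0.748 FPKM in HC, 15.4 ± 1.32 FPKM in MC and 5.21 ± 0.808 FPKM in LC, and both rose in both contrasts against LC. Of 70 other mitotic genes, 17 rose (24.3%) and 1 fell in HC minus LC, 41 rose (58.6%) and 0 fell in MC minus LC, and 0 rose and 15 fell (21.4%) in HC minus MC. KIFC1, a kinesin that focuses spindle poles, averaged 2.94 ± 0.251 FPKM in HC, 5.19 ± 0.434 FPKM in MC and 1.39 ± 0.302 FPKM in LC. CKS2, a small protein bound to CDK1, averaged 16.8 ± 2.82 FPKM in HC, 18.6 ± 2.90 FPKM in MC and 5.96 ± 1.87 FPKM in LC.

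Lists with members that are also active outside division were counted in the same way. Of 17 genes of the anaphase-promoting complex and its regulators, 1 rose and 2 fell in HC minus LC, 4 rose and 2 fell in MC minus LC, and 0 rose and 2 fell in HC minus MC; the shares in HC minus LC were 5.88% up and 11.8% down. CDC16 and ANAPC7, subunits of that complex, were high in MC: CDC16 averaged 6.19 ± 0.525 FPKM in HC, 12.3 ± 1.08 FPKM in MC and 7.002 ± 0.158 FPKM in LC, and ANAPC7 averaged 8.15 ± 0.656 FPKM in HC, 13.6 ± 0.771 FPKM in MC and 7.68 ± 0.773 FPKM in LC. Of 11 cohesin genes, 0 rose and 4 fell in HC minus LC, 2 rose and 3 fell in MC minus LC, and 0 rose and 2 fell in HC minus MC. STAG1 and STAG2, alternative cohesin subunits, fell against LC in both diets; STAG1 averaged 3.04 ± 0.368 FPKM in HC, 3.32 ± 0.244 FPKM in MC and 5.06 ± 0.288 FPKM in LC, and STAG2 averaged 8.19 ± 1.16 FPKM in HC, 8.21 ± 0.653 FPKM in MC and 12.2 ± 1.29 FPKM in LC. Of 30 G1 genes and inhibitors of the cycle, 2 rose and 2 fell in HC minus LC, 11 rose and 3 fell in MC minus LC, and 3 rose and 7 fell in HC minus MC. BTG1, which restrains proliferation, averaged 97.8 ± 2.92 FPKM in HC, 42.2 ± 10.6 FPKM in MC and 158.5 ± 12.4 FPKM in LC and fell against LC in both diets, while E2F1, a factor that switches on S phase genes, averaged 4.23 ± 0.457 FPKM in HC, 4.96 ± 0.454 FPKM in MC and 2.28 ± 0.285 FPKM in LC and rose in both.

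**Figure D5:**
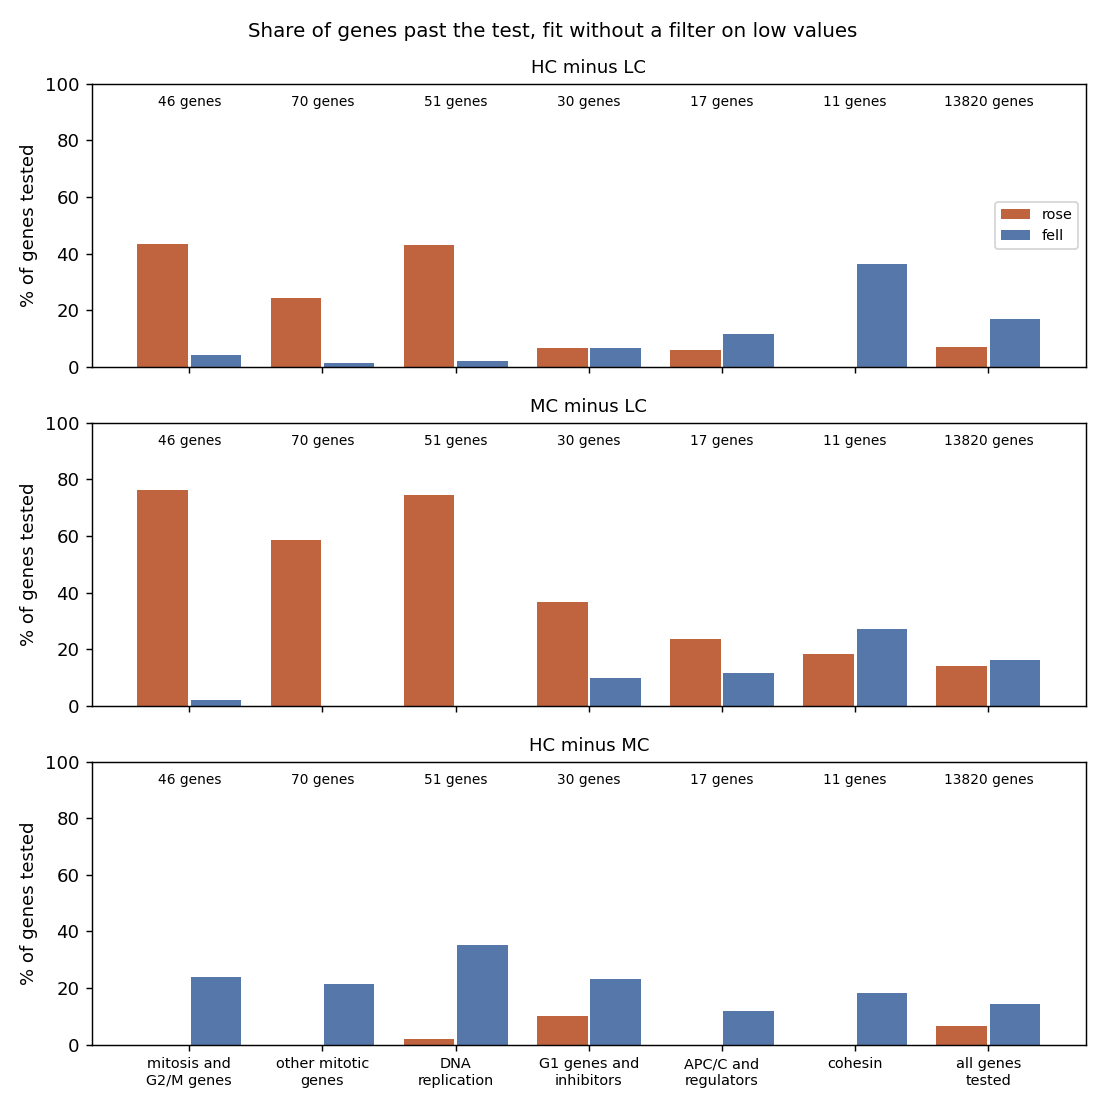
Share of genes tested that rose or fell (y axis, %) in HC minus LC, MC minus LC and HC minus MC, for the 46 mitosis and G2/M genes, 5 other lists and all 13820 genes, in the fit without a filter. In MC minus LC, 76.1% of the mitosis and G2/M genes and 74.5% of the DNA replication genes rose, against 14.0% of all genes.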

How the data were processed

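RNA of rumen epithelium was sequenced in 9 libraries, 3 per diet, from total RNA with an Illumina TruSeq kit per the labels' protocols. The authors deposited FPKM values, 1 per gene and library; the submitters' processing notes name Bowtie 1.2.0 and Cufflinks 2.2.1, and the unit follows from that tool and from the range of values. Genome build and strand: not given in the sources used here. Starts in the files count from 0 and were moved to count from 1. Chromosome names are those of the RefSeq table of assembly ARS1.2, matched by symbol for all 48 genes. Positions are those deposited, so a chromosome and the positions printed with it may belong to different builds. In the MC and LC files 18 to 21 lines with names turned into dates were left out, against 0 in HC.

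All tests used limma 3.58.1 (R 4.3.3) on log2(FPKM + 1), with 1 mean per diet, trend and robust moderation, over 11668 genes listed in all 9 libraries with at least 1 FPKM in at least 3. The fit without a filter used all 13820 genes listed in all 9, and was repeated after the data were seen with the scalings, the muscle covariate, LC3 alone for LC and each library left out. In simulated data for HC minus LC with 11668 genes, 200 of them changed, the fit with the filter recovered 0% of changes of 0.5 log2, 85% of 1 and 96.5% of 2, with 0, 5 and 10 unchanged genes called. In the data 2939 genes passed in HC minus LC, so the adjusted threshold was stricter in the simulation. Its 0% does not give the share found in the data, where CENPA passed with a change of 0.42. Other settings varied the filter, the pseudocount, the scaling, the moderation, the weights of libraries (statmod 1.5.0), a replicate block, the diets in the fit and the libraries used; the muscle covariate, the scaling to a sum of 1000000 and LC3 alone for LC were chosen after seeing the data.

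The 48 genes and all lists were chosen with earlier results of these data known. Values in every library are given for MKI67 and for the 2 genes of each role with the lowest F test p (both transcription factors), and of other lists for at most 2 genes; CDC25B and KIF23 were added after their values were seen. Tables were read with Python 3.11.15, pandas 2.3.3 and numpy 2.4.6, and figures drawn with matplotlib 3.10.9.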

Additional observations from a re-analysis of the deposited data

How the results depend on the processing

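The number of the 41 genes past the test was 18 in HC minus LC, 33 in MC minus LC, 11 in HC minus MC and 35 over the diets together. Of all genes, 25.2%, 33.4%, 25% and 45.2% passed in that order. Counts moved by over 1.5 times in these settings. In HC minus LC they were 29 with quantile normalization, 30 with library weights, 7 with the muscle covariate, 10 after scaling to a sum of 1000000 and 2 with LC3 alone for LC. In HC minus MC they were 7 with median-of-ratios scaling, 4 with quantile normalization, 22 with library weights (1 rise and 21 falls) and 3 with the muscle covariate. Of all genes, 24.3%, 24.4%, 56.5% and 8.44% passed there in that order. In HC minus LC, 22.6% of all genes passed with quantile normalization and 50.5% with library weights. The muscle covariate gave 17.5% there and the sum of 1000000 gave 25.2%. With LC3 alone for LC, 14 passed in MC minus LC and 18 over the diets together. Leaving out 1 library gave 8 to 17 in HC minus LC, 29 to 34 in MC minus LC, 4 to 14 in HC minus MC and 29 to 36 over the diets together. Of all genes, 15.2% to 24.1%, 24.3% to 34.7%, 13.9% to 34.8% and 34.2% to 50.6% passed in that order. Without a filter, where 22, 36, 11 and 39 of the 46 genes passed in that order, the covariate gave 8 in HC minus LC and 3 in HC minus MC, the sum of 1000000 gave 13 in HC minus LC, quantile normalization gave 6 in HC minus MC, and LC3 alone gave 3 in HC minus LC, 14 in MC minus LC and 17 over the diets. Leaving out 1 library there gave 8 to 21 in HC minus LC, 31 to 37 in MC minus LC, 4 to 14 in HC minus MC and 33 to 40 over the diets. Of all genes, 13.9% to 22.6%, 21.7% to 31.5%, 10.9% to 30.7% and 30.2% to 45.6% passed in that order. With all 9 libraries these shares were 23.9%, 30.2%, 20.9% and 41.1%. The covariate gave 15.8% in HC minus LC and 6.71% in HC minus MC. The sum of 1000000 gave 22.6% in HC minus LC, and quantile normalization gave 21.2% in HC minus MC. Of 18 genes given with their values in every library (all but CDC25B, FOXM1 and KIF23), the calls that held in every alternative run with the filter were those of ANLN and CDC20 in HC minus LC, of ANLN, CCNB1, CDC20, KIF2C, MAD2L1, MYBL2, NCAPG, TPX2 and TTK in MC minus LC, and of CCNB1, RACGAP1 and SMC4 in HC minus MC. Without a filter, the calls of TTK and KIF2C in MC minus LC and of FOXM1 in HC minus LC held in all 14 alternatives.

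The labels do not say that equal replicate numbers mark a shared animal, batch or day, and not every pair of equal numbers deviated together: deviations from the diet means correlated from -0.0759 to 0.504 over 9 pairs, 6 of them over 0.1, and 3 libraries correlated best with their own number in both other diets. With the replicate number as a block, 24 of the 41 genes passed in HC minus LC and 34 in MC minus LC. Of all genes, 32.1% and 39.5% passed there. In HC minus MC 14 passed and over the diets together 36, where 33.2% and 55% of all genes did. The genes added in HC minus LC were CCNA2, KIF20A, MKI67, NCAPG, PTTG1 and SPC25. MKI67 was added in MC minus LC, and ECT2, MAD2L1 and SPC25 in HC minus MC.

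The sign changed in 30 values, none of them past the test in the report, and the cause was not tested. In HC minus MC, CDCA3 became -0.02754 without HC3, -0.26 with the muscle covariate and -0.10 at a sum of 1000000, and lay between -0.045 (without MC1) and 0.096 when 1 library was left out. CDCA8 became 0.11 with library weights, and CENPA 0.075 with quantile normalization. CDC20 became 0.049 with median-of-ratios scaling, 0.096 with quantile normalization and 0.048 with the covariate, and lay between -0.14 and 0.082 (without MC1) when 1 library was left out. ANLN became 0.045 with median-of-ratios scaling, 0.091 with quantile normalization and 0.0065 with the covariate, and lay between -0.13 and 0.051 (without HC2) when 1 library was left out. MKI67 became 0.060 with median-of-ratios scaling, 0.16 with quantile normalization, 0.25 with library weights and 0.11 without MC3, and lay between -0.14 and 0.16 (without HC1) when 1 library was left out. RACGAP1 in HC minus LC became 0.0053 with median-of-ratios scaling, 0.068 with quantile normalization and 0.051 with library weights. In HC minus MC without a filter, KIF23 became 0.0077 with median-of-ratios scaling, 0.1004 with quantile normalization and 0.0147 with the covariate, and lay between -0.119 and 0.0433 (without HC2) when 1 library was left out. KIF4A became 0.0179 with median-of-ratios scaling, 0.11 with quantile normalization and 0.0296 without MC2, and lay between -0.14 and 0.0557 (without HC2) when 1 library was left out. The low FPKM of most of these genes and the missing read counts limit what small differences can show.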

Other observations

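Ratios of partner genes within a library do not change when a library is multiplied by a factor, though quantile normalization would change them; these 6 pairs were chosen after their values were seen, and no test was made. The FPKM of SMC4 over that of SMC2, which pair in the condensin core, was 1.11 to 1.292 in HC, 1.875 to 2.225 in MC and 3.175 to 4.345 in LC, with no overlap between diets. FOXM1 over MYBL2 was 0.438 to 0.466 in HC, 0.14 to 0.17 in MC and 0.097 to 0.294 in LC, so that HC lay above both. FOXM1 itself was at 0.464 to 0.676 FPKM in MC and 0.151 to 0.363 FPKM in LC, so this ratio rests on low values. CDC25B over CCNB1 was 0.756 to 0.995 in HC, 0.48 to 0.69 in MC and 2.21 to 2.71 in LC. RACGAP1 over KIF23, which form centralspindlin, was 7.47 to 11.5 in HC, 12.4 to 15.6 in MC and 18.1 to 30.8 in LC. KIF23 was under 1 FPKM in every library and at 0.295 to 0.409 FPKM in LC, so this ratio too rests on low values. NCAPG over NCAPD2, 2 subunits of condensin I, was 1.235 to 2.541 in HC, 1.751 to 3.054 in MC and 0.6297 to 0.9959 in LC, with HC and MC overlapping. CCNB1 over CCNB2 was 1.192 to 2.338 in HC, 2.599 to 4.139 in MC and 1.066 to 1.906 in LC, with HC and LC overlapping.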
